A study of Homo sapiens and Mus musculus with 99 samples.

Results

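A membrane pore would run down ion gradients, which pumps restore and along which channels let ions pass. The genes described here are those of the sodium pump, the calcium pumps, the potassium channels and the transient receptor potential (TRP) channels. They were taken by symbol from 6 human count tables, as genes of the KCN, TRPA, TRPC, TRPM, TRPV, ATP1A, ATP1B, ATP2A, ATP2B and ATP2C families, and were kept where a gene had at least 10 counts in 2 or more libraries of a table. Of 57820 gene IDs, 182 had such a symbol and 85 were kept in at least 1 table, 53 of them in all 6. The 85 were 8 of 12 sodium pump genes, 11 of 14 calcium pump genes, 53 of 119 potassium channel genes and 13 of 37 TRP genes, and 97 were too low in every table. Since the choice went by symbol, the 85 take in 11 non-coding genes and also accessory proteins such as the KCNE and KCNAB subunits and TRPC4AP, a partner of a TRP channel.

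The sodium pump exports sodium and imports potassium at the cost of ATP, and each pump pairs a catalytic alpha subunit with a beta subunit that carries it to the cell surface. Calcium pumps clear calcium from the cytosol, into the endoplasmic reticulum (the ATP2A genes), out across the plasma membrane (ATP2B) or into the Golgi (ATP2C). Potassium channels set the membrane potential of epithelial cells, and many TRP channels let calcium in on heat, stretch, swelling or chemical irritants. Aeg-S and Aeg-L are proteins of the mould Alternaria alternata that act together as a pore-forming pair.

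Both cell lines are epithelial lines from human non-small cell lung cancers, NCI-H1437 and NCI-H292, and every library was made from cells harvested 4 h after treatment. H1437 cells were studied in 4 experiments. In H1437-1 they received ALT (an extract of Alternaria alternata) with Tra, ALT alone, or the buffer control DPBS, with 3 libraries a group. In H1437-2 the groups were Aeg-S/L with Tra, Aeg-S/L (both proteins), Aeg-S, Aeg-L and DPBS. In H1437-3 they were Aeg-S/L with the calcium chelator BAPTA-AM, which enters cells, Aeg-S/L with EGTA, which binds calcium outside them, Aeg-S/L alone, and DPBS. In H1437-4 they were extracts of the aegs KO fungus, of the aegl KO fungus and of the wild-type fungus (WT ALT), and DPBS. H292-1 repeated the extract groups and H292-2 the chelator groups in H292 cells, and all experiments but H1437-1 had 2 libraries a group. The knockouts are in the fungus, so the targeted genes have no human counts. Tra is given by its label only, in a deposited table whose name speaks of a MEK inhibitor. No group received a chelator or Tra without a stimulus, so the effect of the agent on the cells and its effect on the stimulus cannot be told apart. For the H292-2 BAPTA-AM libraries the sample labels give Aeg-S/L, the column names give the chelator alone and the table they stand in is named for ALT. The sample labels were followed.

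The 51 libraries held 32425310 to 53172930 counts each. Epithelial markers (CDH1, EPCAM, KRT7, KRT8 and KRT18) summed to 3870 to 5170 CPM (counts scaled to the size of the library) in H292 and 3130 to 5630 CPM in H1437. Immune markers summed to 0.819 to 2.42 CPM in H292 and to 19.7 to 41.8 CPM in H1437, nearly all CD14 there, with PTPRC and CD3E near 0 in both. Endothelial markers summed to 51.2 to 76.1 CPM in H292, mainly CDH5, and 2.2 to 9.29 CPM in H1437, and fibroblast markers to 18.7 to 51.6 CPM in H292 and 54.2 to 226 CPM in H1437, mainly COL1A1. In H1437-1 the first DPBS library stood apart from its group (correlation of log CPM with the rest 0.9587). A level in these bulk libraries cannot tell fewer cells of a kind from less RNA per cell.

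The promoters of 3 genes that the results turn on are shown from 250 bases before to 50 bases after the annotated start (RefSeq, build GRCh38.p14, each on the plus strand, read 5′ to 3′). ATP1B3 (chr3:141876393-141876692) and ATP1B1 (chr1:169106440-169106739) encode sodium pump beta subunits and KCNF1 (chr2:10911684-10911983) encodes a silent potassium channel subunit that alters other channels. Capitals mark matches on either strand to 5 motifs: the AP-1 site TGANTCA, the full CRE TGACGTCA, the CRE core TGACG (which the full CRE holds on both strands), the EGR site GCGNGGGCG and the NFAT core TGGAAA.
ATP1B3: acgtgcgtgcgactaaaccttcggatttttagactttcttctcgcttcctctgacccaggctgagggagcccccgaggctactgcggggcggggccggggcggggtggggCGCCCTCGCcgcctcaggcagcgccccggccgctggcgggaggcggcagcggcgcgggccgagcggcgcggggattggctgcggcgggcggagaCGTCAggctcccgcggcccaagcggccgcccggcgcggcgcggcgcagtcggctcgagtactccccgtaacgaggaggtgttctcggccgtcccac
ATP1B1: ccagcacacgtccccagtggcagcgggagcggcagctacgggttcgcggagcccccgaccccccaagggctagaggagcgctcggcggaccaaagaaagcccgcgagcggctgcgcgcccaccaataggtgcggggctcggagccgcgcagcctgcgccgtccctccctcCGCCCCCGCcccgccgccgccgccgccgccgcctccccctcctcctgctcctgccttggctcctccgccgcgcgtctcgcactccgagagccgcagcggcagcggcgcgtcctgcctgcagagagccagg
KCNF1: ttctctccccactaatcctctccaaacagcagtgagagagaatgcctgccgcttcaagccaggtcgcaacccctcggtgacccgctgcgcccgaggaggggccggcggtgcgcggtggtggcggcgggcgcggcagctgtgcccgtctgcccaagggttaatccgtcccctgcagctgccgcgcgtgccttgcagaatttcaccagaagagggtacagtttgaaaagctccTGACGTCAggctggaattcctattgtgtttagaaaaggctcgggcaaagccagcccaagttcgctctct
In ATP1B3 the CRE core lies 46 bases and the EGR match 140 bases before the start, in ATP1B1 the EGR match lies 80 bases before it, and in KCNF1 the full CRE lies 19 bases before it. None of the 3 windows holds an AP-1 or NFAT match. Of 52 coding genes of the group with a promoter in the table, 3 (5.77%) hold the AP-1 site, 1 (1.92%) the full CRE, 15 (28.8%) the CRE core, 8 (15.4%) the EGR site and 10 (19.2%) the NFAT core. Over all 27305 promoters of this length the shares are 7.76%, 1.98%, 25.0%, 9.28% and 21.1% in the same order. A match is a run of letters and not a measured site.

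In untreated cells subunits of the sodium pump and the calcium pump ATP2A2, the endoplasmic reticulum pump known as SERCA2, headed the group in both lines. On the FPKM scale, which divides by gene length, H292 cells had 89.9 ± 8.17 FPKM of ATP2A2, 59.6 ± 1.45 FPKM of ATP1B3 and 24.1 ± 0.866 FPKM of ATP1B1 (SD, n = 4). H1437 cells had 134 ± 15.7 FPKM of ATP1B1, 131 ± 5.15 FPKM of ATP1B3 and 66.1 ± 12.8 FPKM of ATP2A2 (SD, n = 9). ATP1B1 and ATP1B3 did not differ beyond their spread in H1437, while in H292 each of these 3 levels lay apart from the next by more than 1 SD. In H292 the potassium channel with the highest level was KCNN4, a calcium-activated channel, at 44.7 ± 2.3 FPKM. TRPV4, a calcium channel opened by swelling and stretch, had 9.37 ± 0.931 FPKM in H292 and 0.0533 ± 0.0288 FPKM in H1437. Of the 85 genes, 10 reached 10 FPKM in H292 and 11 did in H1437, and 24 reached 1 FPKM in H292 and 29 did in H1437. Line and experiment cannot be told apart, so no test was made between the untreated lines.

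**Figure D1:**
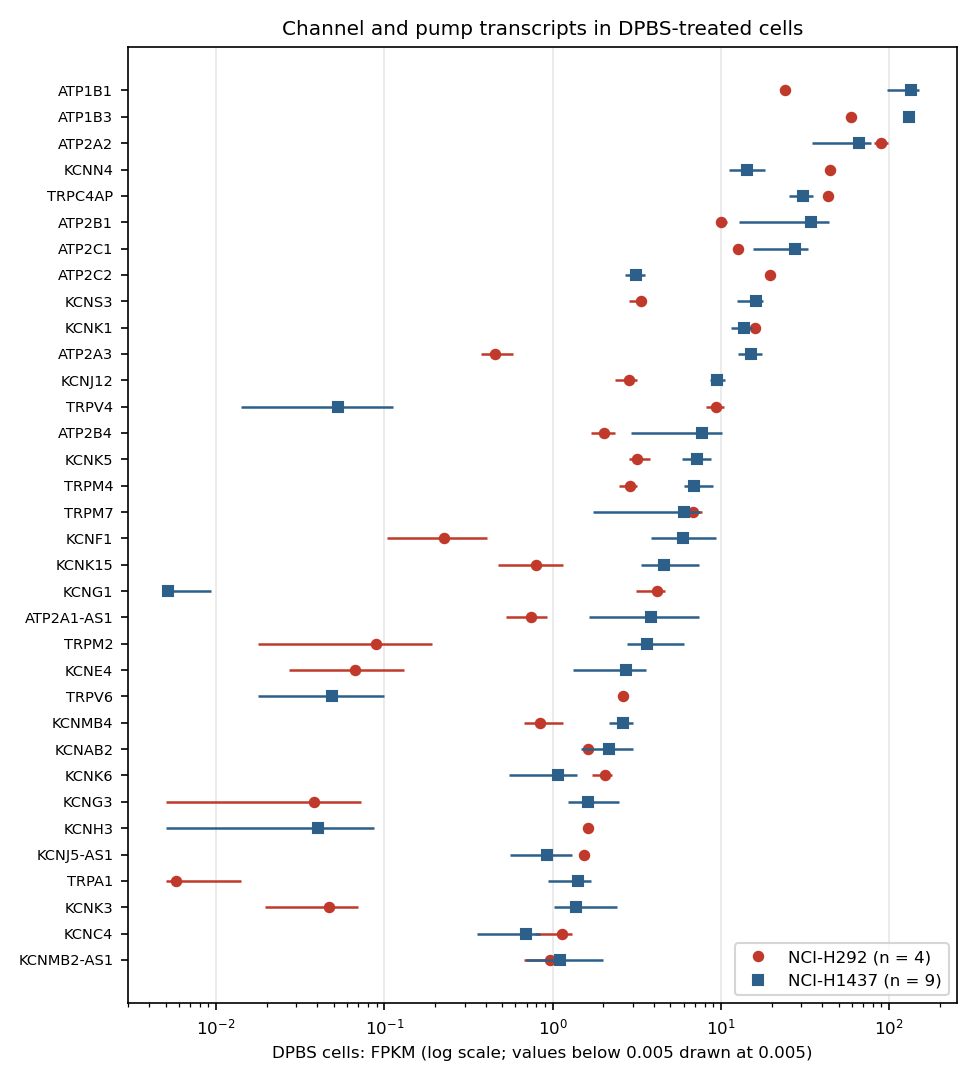
Level of the most abundant ion channel and pump genes in untreated (DPBS) cells, in FPKM on a log axis, with red circles for H292 (n = 4) and blue squares for H1437 (n = 9), each the mean with a line from the lowest to the highest library. Pump genes such as ATP1B3 and ATP2A2 stand at the high end in both lines, and TRPV4 is far higher in H292 (9.37 FPKM) than in H1437 (0.0533 FPKM).

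Stimulation changed a limited number of these genes, in both directions. A change was called where edgeR's quasi-likelihood test gave a Benjamini-Hochberg adjusted p under 0.05 over all genes tested, and all adjusted p below come from that test. With Aeg-S/L in H1437-3, 12 of 66 tested genes rose and 11 fell, where 31.2% of all genes were called (15.4% higher, 15.8% lower). WT ALT in H1437-4 raised 12 of 65 and lowered 5, where 32.8% of all genes were called (15.8% higher, 17.1% lower). In H292-1 WT ALT raised 13 of 64 and lowered 4, beside 22.9% of all genes (11.6% higher, 11.3% lower). There the share of mitochondrial counts moved with the extract, at 1.02% and 0.99% with WT ALT against 2.79% and 2.51% in DPBS, and its part in the result was not tested. In H292-2 Aeg-S/L raised 18 of 67 and lowered 6, beside 43.2% (22.1% higher, 21.1% lower). Over both directions, the 4 shares of the group (34.8%, 26.2%, 26.6% and 35.8%) are near or below those of all genes. Their median log2 change was 0.05, 0.17, 0.11 and 0.19 in these 4 comparisons, against 0.01, -0.01, -0.01 and -0.01 over all genes. Stimulated and control libraries did not overlap for 63.8%, 62.8%, 69.2% and 71.7% of all genes in the same order. Groups that lie apart are therefore the usual case here and add little to a call. In H1437-1 ALT raised 3 of 62 and lowered none (4.71% of all genes called, 3.59% higher and 1.13% lower), and in H1437-2 Aeg-S/L raised 5 of 66 and lowered 1 (6.72% called, 3.63% higher and 3.1% lower).

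Several of these counts rested on single libraries. In H292-1 the 17 genes called with WT ALT fell to 6 without either WT ALT library, 5 without DPBS replicate 1 and 9 without DPBS replicate 2. Without Aeg-S/L replicate 2 the count was 13 in place of 23 in H1437-3 and 14 in place of 24 in H292-2. In H1437-1 the 3 calls became 1 without ALT replicate 2, ALT replicate 3 or DPBS replicate 2 and 5 without DPBS replicate 1, the library that stood apart. In H1437-2 none of the 6 calls held without any 1 of the 4 libraries. The p-values measure the spread between these cultures, which the series describes as biological replicates.

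**Figure D2:**
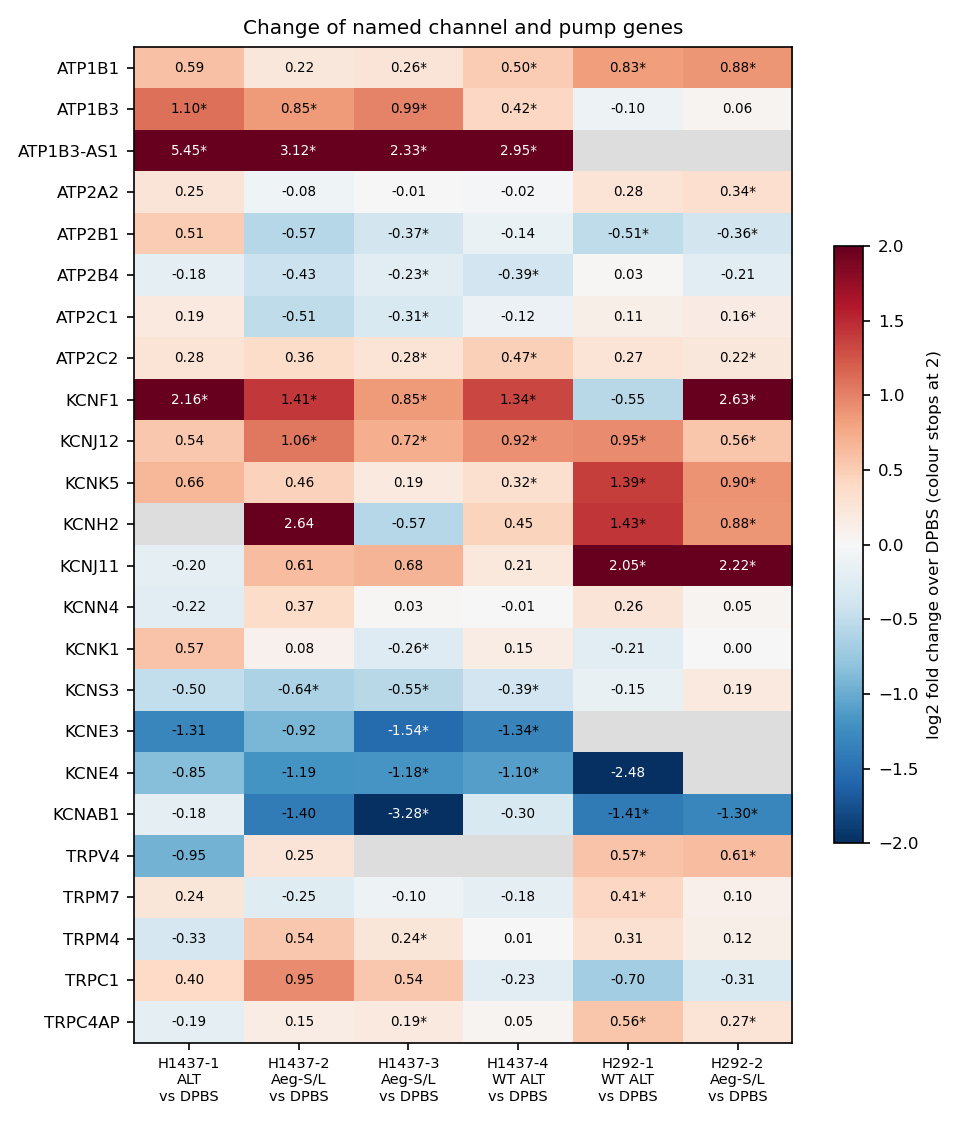
Log2 change against DPBS of named genes (rows) in 6 stimulus comparisons (columns), as colour that stops at a change of 2 either way, with a star where the adjusted p is under 0.05 and grey where the gene was not tested. ATP1B3 carries stars in H1437 experiments and none in H292, while ATP1B1 and KCNJ12 carry stars in both lines.

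Among the sodium pump genes the beta subunits rose, ATP1B3 in H1437 and ATP1B1 in both lines. ATP1B3 (hg19 chr3:141594966-141645356, plus strand) had 667 and 653 CPM with Aeg-S/L against 339 and 324 CPM in DPBS in H1437-3. Both treated libraries lay far above both controls, and the log2 change was 0.99 ± 0.05 (SE, adjusted p = 3.37e-10). In H1437-4 it had 417 and 442 CPM with WT ALT against 323 and 319 CPM in DPBS, a smaller rise of 0.42 ± 0.05 (adjusted p = 1.15e-05). ALT in H1437-1 gave 683, 774 and 758 CPM against 348, 336 and 351 CPM, a rise of 1.10 ± 0.20 (adjusted p = 0.00912). That call did not hold without ALT replicate 2, ALT replicate 3 or DPBS replicate 2 (adjusted p = 0.0627, 0.0595 and 0.0527), though the change stayed between 1.05 and 1.14. Aeg-S/L in H1437-2 gave 619 and 638 CPM against 341 and 357 CPM (0.85 ± 0.15, adjusted p = 0.00615), and there too no call held without any 1 library (adjusted p = 0.084 to 0.109). In H292 cells the same gene stayed level: it had 159 and 155 CPM with Aeg-S/L against 151 and 151 CPM in DPBS (0.06 ± 0.06, adjusted p = 0.425), and 144 and 148 CPM with WT ALT against 157 and 157 CPM (-0.10 ± 0.12, adjusted p = 0.577).

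ATP1B3-AS1, a non-coding gene on the opposite strand inside the same locus (hg19 chr3:141637094-141637863), moved in the same direction at a far lower level. In H1437-1 it had 2.98, 5.32 and 6.10 CPM with ALT against 0, 0.181 and 0.133 CPM in DPBS, a log2 change of 5.45 ± 0.68 (adjusted p = 0.00112). In H1437-3 it had 1.90 and 2.47 CPM with Aeg-S/L against 0.148 and 0.709 CPM (2.33 ± 0.56, adjusted p = 0.00459). In H1437-4 the WT ALT libraries held 3.21 and 0.941 CPM against 0.188 and 0.349 CPM in DPBS, and the call (2.95 ± 0.67, adjusted p = 0.00272) was lost without WT ALT replicate 1 (1.81, adjusted p = 0.196). The library kit named in the labels does not mark strand, so reads of ATP1B3 and of ATP1B3-AS1 cannot be told apart where they overlap. The same holds for ATP2B1 and ATP2B1-AS1.

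ATP1B1 (hg19 chr1:169074935-169101960, plus strand) rose in both lines. It had 136 and 136 CPM with Aeg-S/L against 77.2 and 71.0 CPM in DPBS in H292-2 (0.88 ± 0.07, adjusted p = 8.02e-09). WT ALT in H292-1 gave 129 and 133 CPM against 75.0 and 73.0 CPM (0.83 ± 0.12, adjusted p = 0.00113). In H1437-3 it had 484 and 487 CPM against 406 and 404 CPM (0.26 ± 0.05, adjusted p = 0.000662), and in H1437-4 WT ALT gave 558 and 602 CPM against 420 and 403 CPM (0.50 ± 0.06, adjusted p = 3.92e-06). In each of these 4 comparisons both stimulated libraries lay above both controls. In H1437-1 the ALT libraries held 569, 585 and 603 CPM and the DPBS libraries 298, 429 and 444 CPM (0.59, adjusted p = 0.164), and in H1437-2 the values were 527 and 536 CPM against 449 and 463 CPM (0.22, adjusted p = 0.496). By family, 3 sodium pump genes rose and 1 fell of 7 tested in H1437-3, 3 rose of 7 in H1437-4, 1 rose of 5 in H292-1 and 2 rose of 6 in H292-2.

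Among calcium pumps, the plasma membrane pumps ATP2B1 and ATP2B4 fell where they were called with a stimulus. ATP2B1 (hg19 chr12:89981828-90103077, minus strand) had 259 and 259 CPM with Aeg-S/L against 331 and 339 CPM in DPBS in H1437-3 (-0.37 ± 0.06, adjusted p = 0.000147). In H292-2 it had 74.6 and 84.2 CPM against 103 and 99.8 CPM (-0.36 ± 0.07, adjusted p = 0.000336). Both stimulated libraries lay below both controls in each line, and the changes in both lines did not differ beyond their error (difference 0.02, adjusted p = 0.909). WT ALT in H292-1 gave 61.1 and 62.9 CPM against 88.1 and 88.4 CPM, and that call (-0.51 ± 0.11, adjusted p = 0.00737) was lost without DPBS replicate 1 (adjusted p = 0.0554), WT ALT replicate 1 (adjusted p = 0.105) or WT ALT replicate 2 (adjusted p = 0.0788). In H1437-1 ATP2B1 had 405, 375 and 360 CPM with ALT against 121, 329 and 348 CPM in DPBS, the lowest value being that of the DPBS library that stood apart (0.51 ± 0.33, adjusted p = 0.484). WT ALT in H1437-4 gave no call (mean 291.8 CPM against 322.5 CPM in DPBS), nor did Aeg-S/L in H1437-2. With the extract, the change in H292-1 minus that in H1437-4 was -0.37 (adjusted p = 0.107). ATP2B4, a second plasma membrane pump, had 59.3 and 55.7 CPM with WT ALT against 75.6 and 75.5 CPM in DPBS in H1437-4 (-0.39 ± 0.07, adjusted p = 0.000443).

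ATP2A2 (hg19 chr12:110718561-110788898, plus strand) rose in H292-2, with 1682 and 1678 CPM under Aeg-S/L against 1360.0 and 1299 CPM in DPBS (0.34 ± 0.05, adjusted p = 2.42e-05). In H1437-3 the same pump had 904 and 892 CPM against 895 and 917 CPM (-0.01, adjusted p = 0.874). ATP2A3, known as SERCA3, fell there, with 78.3 and 85.7 CPM against 106 and 103 CPM (-0.36 ± 0.08, adjusted p = 0.00175). ATP2C1, the Golgi calcium and manganese pump, had 190.0 and 185 CPM with Aeg-S/L against 229 and 235 CPM in DPBS in H1437-3 (-0.31 ± 0.05, adjusted p = 0.000383). In H292-2 ATP2C1 was called in the opposite direction, higher with Aeg-S/L. ATP2C2, its relative with a narrower tissue range, had 28.2 and 31.5 CPM with WT ALT against 21.9 and 21.3 CPM in DPBS in H1437-4 (0.47 ± 0.1, adjusted p = 0.00188). It also rose in H292-2, with 150.3 and 154 CPM under Aeg-S/L against 131 and 131 CPM (0.22, adjusted p = 0.00417), a call lost without Aeg-S/L replicate 2 (adjusted p = 0.0701). The calcium pump genes called at a log2 change of 1 or more in H1437-3, H1437-4, H292-1 or H292-2, picked out after their values were seen, were ATP2B2 and ATP2A1, both at low level. ATP2B2, another plasma membrane pump, had 0.934 and 0.388 CPM with WT ALT against 0.191 and 0.0601 CPM in DPBS in H292-1 (2.32 ± 0.74, adjusted p = 0.0461). That call was lost without any 1 library (adjusted p = 0.0519 to 0.324). ATP2A1, known as SERCA1, had 0.609 and 0.532 CPM with Aeg-S/L against 1.34 and 1.37 CPM in DPBS in H292-2 (-1.24 ± 0.44, adjusted p = 0.0274), lost without any 1 library (adjusted p = 0.0694 to 0.114). By family, 1 calcium pump gene rose and 4 fell of 10 tested in H1437-3, 2 rose and 2 fell of 10 in H1437-4, 1 rose and 1 fell of 11 in H292-1, and 3 rose and 2 fell of 11 in H292-2.

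Among potassium channels, KCNF1 and KCNJ12 were called in 5 of the 6 stimulus comparisons, always higher. KCNF1 (hg19 chr2:11052063-11054350, plus strand) had 26.9 and 30.5 CPM with WT ALT against 10.8 and 11.9 CPM in DPBS in H1437-4 (1.34 ± 0.11, adjusted p = 1.97e-07). In H1437-3 it had 26.9 and 25.9 CPM with Aeg-S/L against 16.5 and 12.8 CPM (0.85 ± 0.12, adjusted p = 4.98e-05). In each case the groups did not overlap. ALT gave 61.2, 61.5 and 66.8 CPM against 21.3, 8.76 and 12.2 CPM in H1437-1 (2.16 ± 0.50, adjusted p = 0.0312), a call that held without DPBS replicate 1 but not without any 1 of the other 5 libraries (adjusted p = 0.0847 to 0.131). In H1437-2 KCNF1 had 36.2 and 38.1 CPM against 17.0 and 11.0 CPM, called at 1.41 ± 0.33 (adjusted p = 0.0253) but not without any 1 library (adjusted p = 0.0539 to 0.264). In H292-2 the gene was near the floor of detection, with 1.70 and 2.07 CPM under Aeg-S/L against 0.238 and 0.363 CPM in DPBS (2.63 ± 0.55, adjusted p = 0.000731). In H292-1 it had 0.422 and 0.567 CPM with WT ALT against 0.526 and 0.931 CPM (-0.55, adjusted p = 0.627).

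KCNJ12, an inward rectifier that holds the resting potential (hg19 chr17:21279509-21323179, plus strand), has a near-identical copy in the genome, KCNJ18, so its counts are uncertain. It had 108 and 96.9 CPM with WT ALT against 55.3 and 53.1 CPM in DPBS in H1437-4 (0.92 ± 0.07, adjusted p = 4.59e-08) and 82.3 and 87.3 CPM with Aeg-S/L against 49.3 and 53.5 CPM in H1437-3 (0.72 ± 0.08, adjusted p = 5.62e-06). H292 cells had 25.1 and 30.0 CPM with WT ALT against 13.3 and 15.3 CPM in H292-1 (0.95 ± 0.15, adjusted p = 0.00168), and 26.6 and 25.3 CPM with Aeg-S/L against 17.4 and 17.8 CPM in H292-2 (0.56 ± 0.13, adjusted p = 0.00172). No stimulated library overlapped its controls in these 4 comparisons, as was so for 62.8%, 63.8%, 69.2% and 71.7% of all genes. In H1437-2 it had 105 and 102 CPM with Aeg-S/L against 50.9 and 48.1 CPM (1.06 ± 0.23, adjusted p = 0.017), a call lost without any 1 library (adjusted p = 0.116 to 0.188).

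KCNK5, a tandem-pore channel that sets the background potassium leak and senses volume and pH, rose in H292 cells and by a smaller amount in H1437-4 (hg19 chr6:39156749-39197226, minus strand). It had 27.8 and 31.2 CPM with WT ALT against 11.4 and 11.1 CPM in DPBS in H292-1 (1.39 ± 0.18, adjusted p = 0.000428) and 19.1 and 27.4 CPM with Aeg-S/L against 10.7 and 14.2 CPM in H292-2 (0.90 ± 0.16, adjusted p = 0.000167). Groups were apart in both, with the wider spread in H292-2. In H1437-3 it had 32.3 and 33.1 CPM against 29.4 and 28.1 CPM (0.19, adjusted p = 0.127). WT ALT in H1437-4 gave 33.7 and 35.7 CPM against 27.9 and 27.7 CPM (0.32 ± 0.11, adjusted p = 0.0332), a call lost without DPBS replicate 1 (adjusted p = 0.117), DPBS replicate 2 (adjusted p = 0.135) or WT ALT replicate 2 (adjusted p = 0.1095). KCNK1, another leak channel, had 44.1 and 44.8 CPM with Aeg-S/L against 54.04 and 52.2 CPM in DPBS in H1437-3 (-0.26, adjusted p = 0.0114). That call was lost without either Aeg-S/L library (adjusted p = 0.0841 and 0.0569) or DPBS replicate 1 (adjusted p = 0.0737). In H292-2 KCNK1 had 56.6 and 56.0 CPM against 58.0 and 54.3 CPM (0.00, adjusted p = 0.981). KCNN4 was not called in any stimulus comparison: it had 50.6 and 50.7 CPM with Aeg-S/L against 50.4 and 48.8 CPM in H1437-3 (0.03, adjusted p = 0.811), and 153 and 149 CPM against 147 and 144 CPM in H292-2 (0.05, adjusted p = 0.579). KCNMA1, the large-conductance calcium-activated channel, did not reach the count minimum in any table, with at most 14 counts in a library.

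A few channel subunits of low level also rose in H292 cells. KCNJ11, the pore of the ATP-sensitive potassium channel, had 2.63 and 2.51 CPM with Aeg-S/L against 0.774 and 0.335 CPM in H292-2 (2.22 ± 0.39, adjusted p = 0.000114). Its rise with WT ALT in H292-1, to 3.25 and 2.93 CPM against 0.454 and 1.05 CPM in DPBS (2.05, adjusted p = 0.019), was lost without DPBS replicate 1 (adjusted p = 0.147), WT ALT replicate 1 (adjusted p = 0.0926) or WT ALT replicate 2 (adjusted p = 0.0663). KCNH2, known as hERG, had 7.60 and 7.63 CPM with Aeg-S/L against 3.75 and 4.52 CPM in H292-2 (0.88 ± 0.20, adjusted p = 0.00118). With WT ALT in H292-1 it had 7.74 and 7.64 CPM against 2.22 and 3.51 CPM (1.43 ± 0.29, adjusted p = 0.00639), lost without DPBS replicate 1 (adjusted p = 0.0688). Both stimulated libraries lay above both controls for each of these genes. KCNQ1, a channel that recycles potassium in many epithelia, had 0.801 and 1.09 CPM with Aeg-S/L against 0.327 and 0.307 CPM in H292-2 (1.57, adjusted p = 0.026), a call lost without Aeg-S/L replicate 2 (adjusted p = 0.154) or either DPBS library (adjusted p = 0.0831 and 0.101).

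Of the 5 potassium channel genes that fell in H1437-3, KCNAB1, KCNE3, KCNE4 and KCNS3 encode subunits that modify other channels and KCNK1 encodes a pore. KCNAB1 was near the floor of detection there, with a mean of 0.0557 CPM with Aeg-S/L against 0.577 CPM in DPBS. It was also called lower in H292 cells. The means were 0.789 against 2.12 CPM with WT ALT in H292-1, and 0.986 against 2.44 CPM with Aeg-S/L in H292-2. KCNE4, a beta subunit that inhibits KCNQ1-type channels (hg19 chr2:223916532-224063117, plus strand), had 6.12 and 6.93 CPM with WT ALT against 14.9 and 13.0 CPM in DPBS in H1437-4 (-1.10 ± 0.13, adjusted p = 8.44e-06). Aeg-S/L in H1437-3 gave 5.21 and 6.04 CPM against 11.3 and 14.1 CPM (-1.18 ± 0.15, adjusted p = 1.81e-05). The stimulated libraries lay below the controls in both experiments. KCNE3, a beta subunit that keeps KCNQ1 open in epithelia, had 1.80 and 1.54 CPM with WT ALT against 4.17 and 4.29 CPM in H1437-4 (-1.34 ± 0.23, adjusted p = 0.000317) and 1.76 and 1.34 CPM with Aeg-S/L against 4.05 and 4.94 CPM in H1437-3 (-1.54 ± 0.28, adjusted p = 0.000462). KCNS3, a silent subunit that modifies KCNB channels, had 37.2 and 36.9 CPM with Aeg-S/L against 55.7 and 52.9 CPM in H1437-3 (-0.55 ± 0.07, adjusted p = 3.04e-05). With WT ALT in H1437-4 it had 36.9 and 45.6 CPM against 55.5 and 52.5 CPM (-0.39 ± 0.09, adjusted p = 0.00349). By family, 4 potassium channel genes rose and 5 fell of 39 tested in H1437-3, 6 rose and 3 fell of 38 in H1437-4, 8 rose and 3 fell of 39 in H292-1, and 9 rose and 3 fell of 40 in H292-2.

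TRP channels were called in both lines, TRPV4 in H292 and TRPM4 in H1437 among them. TRPV4 (hg19 chr12:110220890-110271212, minus strand) had 55.8 and 59.2 CPM with Aeg-S/L against 39.2 and 36.1 CPM in DPBS in H292-2 (0.61 ± 0.12, adjusted p = 0.000529). With WT ALT in H292-1 it had 49.0 and 48.7 CPM against 30.7 and 35.2 CPM (0.57 ± 0.17, adjusted p = 0.0394), a call lost without any 1 library (adjusted p = 0.076 to 0.24). TRPC4AP had 176 and 174 CPM with Aeg-S/L against 148 and 144 CPM in H292-2 (0.27 ± 0.05, adjusted p = 0.000559). With WT ALT in H292-1 it had 195 and 203 CPM against 134 and 136 CPM (0.56 ± 0.11, adjusted p = 0.00628), lost without DPBS replicate 1 (adjusted p = 0.055), WT ALT replicate 1 (adjusted p = 0.0554) or WT ALT replicate 2 (adjusted p = 0.0767). TRPM7, a channel fused to a kinase that carries magnesium and calcium, had 57.6 and 48.8 CPM with Aeg-S/L against 55.1 and 58.8 CPM in H1437-3 (-0.10, adjusted p = 0.431) and 70.0 and 74.7 CPM against 64.0 and 70.6 CPM in H292-2 (0.10, adjusted p = 0.261). With WT ALT it was called in H292-1, at 79.3 and 77.6 CPM against 62.0 and 55.9 CPM in DPBS (0.41 ± 0.12, adjusted p = 0.0282), a call lost without any 1 library (adjusted p = 0.0828 to 0.196) and without the filter on low counts (adjusted p = 0.0538). In H1437-4 it had 49.6 and 48.8 CPM with WT ALT against 57.3 and 54.3 CPM (-0.18, adjusted p = 0.0551). TRPM4, a monovalent cation channel opened by calcium, had 49.1 and 51.3 CPM with Aeg-S/L against 43.5 and 41.3 CPM in H1437-3 (0.24, adjusted p = 0.0276), lost without either Aeg-S/L library (adjusted p = 0.0735 and 0.194) or DPBS replicate 2 (adjusted p = 0.161). TRPC1 was not called in any stimulus comparison.

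Other TRP genes and a leak channel are named here after their values were seen. TRPM2, a calcium channel gated by ADP-ribose and oxidative stress, had 36.3 and 36.5 CPM with Aeg-S/L against 25.7 and 26.2 CPM in DPBS in H1437-3 (0.49 ± 0.09, adjusted p = 0.000381), and 42.8 and 37.0 CPM with WT ALT against 24.0 and 24.3 CPM in H1437-4 (0.72 ± 0.09, adjusted p = 2e-05). KCNK15, a tandem-pore channel, had 9.31 and 9.88 CPM with Aeg-S/L against 5.98 and 4.43 CPM in H1437-3 (0.88 ± 0.18, adjusted p = 0.00136). TRPV6, a calcium-selective channel of absorptive epithelia, had 20.5 and 22.0 CPM with Aeg-S/L against 29.9 and 32.6 CPM in H292-2 (-0.56 ± 0.11, adjusted p = 0.000275). TRPV3, a warmth-gated channel of epithelia, had 2.21 and 2.16 CPM with Aeg-S/L against 0.714 and 0.865 CPM there (1.46, adjusted p = 0.00284). In all of these the stimulated and control libraries were apart. TRPM6, a magnesium channel, was at 0 in both DPBS libraries and averaged 0.306 CPM with Aeg-S/L in H292-2, at least 7.07-fold higher when the floor is 3 counts over the DPBS group. By family, 4 TRP genes rose and 1 fell of 10 tested in H1437-3, 1 rose of 10 in H1437-4, 3 rose of 9 in H292-1, and 4 rose and 1 fell of 10 in H292-2.

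With a chelator present, the beta subunits were lower than with Aeg-S/L alone. Against Aeg-S/L alone, BAPTA-AM raised 4 and lowered 13 of 66 genes in H1437-3 (27.7% of all genes called, 11.6% higher and 16.1% lower) and raised 6 and lowered 11 of 67 in H292-2 (37.9% called, 17.6% higher and 20.3% lower). EGTA raised 6 and lowered 9 of 66 in H1437-3 (30.6% of all genes, 15.8% higher and 14.8% lower) and raised 7 and lowered 10 of 67 in H292-2 (44.9%, 23.2% higher and 21.7% lower). In each case the share of the group was below that of all genes. Chelator and Aeg-S/L libraries did not overlap for 62.4% (BAPTA-AM) and 64.8% (EGTA) of all genes in H1437-3. In H292-2 this was so for 70.3% and 70.1%. Without Aeg-S/L replicate 2 the BAPTA-AM count in H1437-3 was 11 in place of 17 and the EGTA count 9 in place of 15. In H292-2 the BAPTA-AM count was 10, 9 or 11 in place of 17 without BAPTA-AM replicate 1, BAPTA-AM replicate 2 or Aeg-S/L replicate 2. The share of mitochondrial counts moved with the chelator: it was 1.15% and 0.8% with BAPTA-AM, 2.29% and 2.34% with EGTA, 3.26% and 3.45% with Aeg-S/L and 2.38% and 1.98% in DPBS in H1437-3. In H292-2 it was 0.19% and 0.22% with BAPTA-AM, 1.4% and 1.06% with EGTA, 2.05% and 1.82% with Aeg-S/L and 2.09% and 2.41% in DPBS, and its part in the results was not tested.

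ATP1B3 had 293 and 287 CPM with BAPTA-AM and 341 and 330 CPM with EGTA in H1437-3, against 667 and 653 CPM with Aeg-S/L alone. The log2 difference from Aeg-S/L was -1.19 ± 0.05 with BAPTA-AM (adjusted p = 3.27e-11) and -0.98 ± 0.05 with EGTA (adjusted p = 7.65e-10). Set against DPBS, EGTA libraries did not differ beyond their error (0.02, adjusted p = 0.915), while BAPTA-AM libraries lay slightly lower (-0.19, adjusted p = 0.0085, lost without DPBS replicate 1 with adjusted p = 0.0665). ATP1B1 had 49.6 and 51.0 CPM with BAPTA-AM and 76.7 and 88.4 CPM with EGTA in H292-2, against 136 and 136 CPM with Aeg-S/L alone. Both chelators lowered it relative to Aeg-S/L, by -1.44 ± 0.07 with BAPTA-AM (adjusted p = 5.12e-12) and -0.72 ± 0.07 with EGTA (adjusted p = 1.3e-07). BAPTA-AM libraries also lay below DPBS (-0.56, adjusted p = 6.25e-06). In H1437-3 ATP1B1 had 328 and 324 CPM with BAPTA-AM, 431 and 439 CPM with EGTA and 484 and 487 CPM with Aeg-S/L alone. The BAPTA-AM difference from Aeg-S/L was -0.57 ± 0.05 (adjusted p = 1.53e-07), and that of EGTA (-0.16, adjusted p = 0.0238) was lost without any 1 of the 4 libraries (adjusted p = 0.0755 to 0.148).

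The calcium pump ATP2B1 went opposite ways under the chelators. In H292-2 it had 44.8 and 45.7 CPM with BAPTA-AM and 125 and 134 CPM with EGTA, against 74.6 and 84.2 CPM with Aeg-S/L alone and 103 and 99.8 CPM in DPBS. The BAPTA-AM libraries were the lowest of the 4 groups and the EGTA libraries the highest, with log2 differences from Aeg-S/L of -0.81 ± 0.07 (adjusted p = 1.82e-08) and 0.71 ± 0.07 (adjusted p = 1.06e-07). In H1437-3 it had 157 and 176 CPM with BAPTA-AM and 374 and 383 CPM with EGTA, against 259 and 259 CPM with Aeg-S/L alone. Here too the order of the groups was the same, with differences of -0.64 ± 0.06 (adjusted p = 4e-07) and 0.55 ± 0.06 (adjusted p = 3.93e-06). Against DPBS the EGTA rise was 0.35 in H292-2 (adjusted p = 0.000498) and 0.18 in H1437-3 (adjusted p = 0.108). ATP2A2 fell with BAPTA-AM in both lines, to 962 and 965 CPM against 1682 and 1678 CPM with Aeg-S/L in H292-2 (-0.80 ± 0.05, adjusted p = 1.79e-10) and to 726 and 725 CPM against 904 and 892 CPM in H1437-3 (-0.31 ± 0.05, adjusted p = 7.83e-05). ATP2C1 had 245 and 239 CPM with EGTA against 190.0 and 185 CPM with Aeg-S/L in H1437-3 (0.37, adjusted p = 8.5e-05).

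Potassium channels under the chelators fell into different patterns. KCNE4 had 14.3 and 15.4 CPM with EGTA and 5.48 and 5.74 CPM with BAPTA-AM in H1437-3, against 5.21 and 6.04 CPM with Aeg-S/L alone and 11.3 and 14.1 CPM in DPBS. EGTA libraries were thus at the level of DPBS or above (1.40 ± 0.15 from Aeg-S/L, adjusted p = 3.83e-06) and BAPTA-AM libraries at the level of Aeg-S/L (0.00, adjusted p = 0.994). KCNK5 showed the reverse split in H1437-3, where it was not called with Aeg-S/L alone against DPBS. It had 20.9 and 20.3 CPM under BAPTA-AM and 32.6 and 36.0 CPM under EGTA against 32.3 and 33.1 CPM with Aeg-S/L alone (BAPTA-AM -0.67 ± 0.09, adjusted p = 2.62e-05). In H292-2, where Aeg-S/L raised it, KCNK5 was not called against Aeg-S/L with either chelator. There it was called above DPBS with both BAPTA-AM and EGTA. KCNK1 fell with BAPTA-AM in both lines, to 32.6 and 33.4 CPM against 44.1 and 44.8 CPM with Aeg-S/L in H1437-3 (-0.43, adjusted p = 0.00025) and to 37.2 and 32.03 CPM against 56.6 and 56.0 CPM in H292-2 (-0.70, adjusted p = 1.23e-05). KCNF1 had 18.2 and 16.6 CPM with BAPTA-AM and 16.1 and 17.3 CPM with EGTA in H1437-3 against 26.9 and 25.9 CPM with Aeg-S/L (-0.60, adjusted p = 0.00114, and -0.66, adjusted p = 0.000574). KCNJ12 had 62.6 and 73.7 CPM with BAPTA-AM and 58.9 and 63.0 CPM with EGTA in H1437-3, against 82.3 and 87.3 CPM with Aeg-S/L (-0.32, adjusted p = 0.00838, and -0.48, adjusted p = 0.000371). The BAPTA-AM call was lost without BAPTA-AM replicate 1 (adjusted p = 0.135) or Aeg-S/L replicate 2 (adjusted p = 0.0979). In H292-2 it had 31.4 and 33.8 CPM with BAPTA-AM and 34.2 and 23.8 CPM with EGTA, against 26.6 and 25.3 CPM with Aeg-S/L (0.33, adjusted p = 0.046, and 0.16, adjusted p = 0.323). That BAPTA-AM call was lost without any 1 library (adjusted p = 0.0835 to 0.24) and by DESeq2 (adjusted p = 0.0667). Against DPBS, KCNJ12 was higher with BAPTA-AM in both lines (0.41, adjusted p = 0.00111 in H1437-3, and 0.89, adjusted p = 1.81e-05 in H292-2). With EGTA it was called against DPBS in H292-2 (0.72, adjusted p = 0.000229) and not in H1437-3 (0.25, adjusted p = 0.115). KCNJ15, an inward rectifier of low level, had 2.71 and 1.52 CPM with BAPTA-AM and 2.51 and 1.63 CPM with EGTA in H292-2 against 0.577 and 0.443 CPM with Aeg-S/L (2.04, adjusted p = 0.000553, and 2.02, adjusted p = 0.000564). Aeg-S/L alone had lowered KCNJ15 there, to a mean of 0.511 CPM against 1.35 CPM in DPBS. Against DPBS it was not called with either chelator.

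TRPM7, which Aeg-S/L alone left near the DPBS level, had 34.9 and 39.6 CPM with BAPTA-AM against 57.6 and 48.8 CPM with Aeg-S/L in H1437-3 (-0.51 ± 0.09, adjusted p = 0.000345). In H292-2 it had 56.5 and 55.5 CPM with BAPTA-AM and 87.9 and 87.4 CPM with EGTA against 70.0 and 74.7 CPM with Aeg-S/L (-0.37 ± 0.07, adjusted p = 0.000341, and 0.28, adjusted p = 0.00333). The EGTA call was lost without Aeg-S/L replicate 1 (adjusted p = 0.0733). Set against DPBS rather than Aeg-S/L, 9 genes rose and 15 fell of 66 with BAPTA-AM in H1437-3 (34.1% of all genes called, 15% higher and 19.1% lower), and 12 rose and 11 fell of 67 in H292-2 (36.6%, 17.6% higher and 19% lower). The H292-2 count of 23 was 13, 15, 15 or 14 without BAPTA-AM replicate 1, BAPTA-AM replicate 2, DPBS replicate 1 or DPBS replicate 2. With EGTA in H292-2 9 rose and 1 fell of 67 (34.5% of all genes, 20.1% higher and 14.4% lower), or 6 called without DPBS replicate 2. With EGTA in H1437-3 none of 66 was called by edgeR (5.18% of all genes, 4.19% higher and 0.988% lower), where DESeq2 also called 0 and 11 had an unadjusted p under 0.05.

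**Figure D3:**
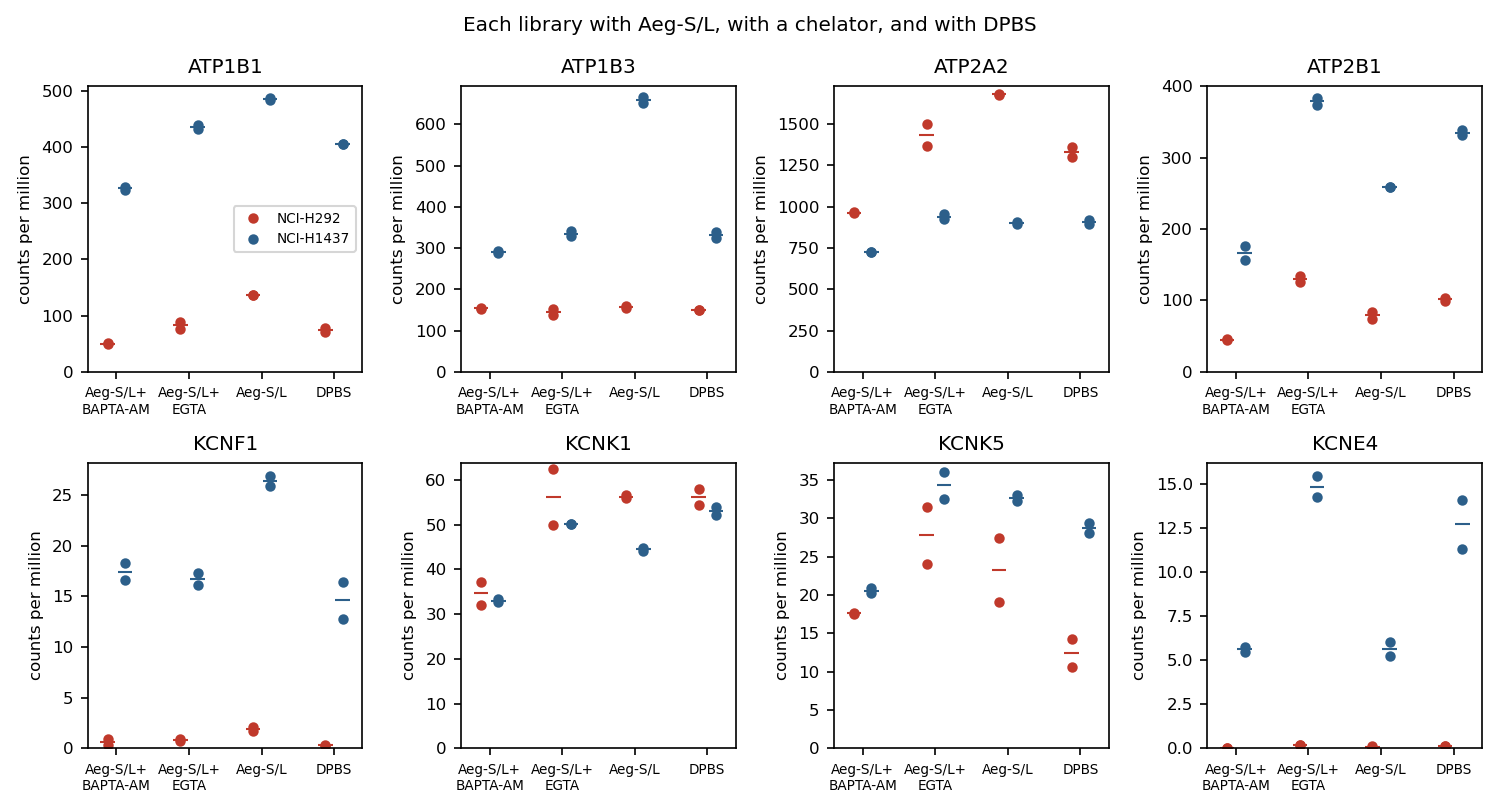
CPM per library (points) and group mean (short lines) of 8 genes in the Aeg-S/L with BAPTA-AM, Aeg-S/L with EGTA, Aeg-S/L and DPBS groups of both lines. ATP2B1 is lowest with BAPTA-AM and highest with EGTA in both lines, and ATP1B3 is raised by Aeg-S/L alone only in H1437.

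With the extracts of the knockout fungi few of these genes were called against DPBS. Against DPBS, the aegs KO extract raised 1 of 65 genes in H1437-4 (1.08% of all genes called, 0.138% higher and 0.945% lower) and the aegl KO extract raised 1 (0.766%, 0.168% higher and 0.598% lower). In H292-1 the aegs KO extract changed none of 64 by edgeR (0% of all genes), with 4 at an unadjusted p under 0.05 and 0 by DESeq2. The aegl KO extract changed none there by edgeR (0.12% of all genes, 0.0963% higher and 0.0241% lower), with 10 at an unadjusted p under 0.05 and 3 by DESeq2. Those 3 were KCNJ12, KCNK5 and ATP2B1, whose aegl KO libraries all lay above DPBS, by log2 0.69, 0.67 and 0.44 in the edgeR fit (adjusted p = 0.177, 0.202 and 0.178). The gene raised in H1437-4 was KCNF1 both times, with 15.9 and 16.9 CPM under aegs KO and 17.5 and 15.3 CPM under aegl KO against 10.8 and 11.9 CPM in DPBS (0.54, adjusted p = 0.0371, and 0.54, adjusted p = 0.0408). Neither call held without any 1 library (adjusted p = 0.136 to 0.439 over both).

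Against WT ALT, the aegs KO extract raised 6 and lowered 11 of 65 genes in H1437-4 (29.9% of all genes called, 15.7% higher and 14.2% lower), and the aegl KO extract raised 6 and lowered 14 (30.6%, 16.2% higher and 14.5% lower). In H292-1 the aegs KO extract raised 3 and lowered 16 of 64 (26.6%, 13.2% higher and 13.4% lower) and the aegl KO extract raised 4 and lowered 7 (19%, 9.85% higher and 9.13% lower). The median log2 difference was -0.23 and -0.33 in H1437-4 (aegs KO, aegl KO) and -0.24 and -0.02 in H292-1, against medians over all genes of -0.01, -0.02, 0 and -0.01. KO and WT ALT libraries did not overlap for 62.6%, 62.7%, 67.4% and 62.7% of all genes in the same order. Without aegl KO replicate 2 the H1437-4 count of 20 was 11. In H292-1 the aegs KO count of 19 was 7 without either WT ALT library and 9 without aegs KO replicate 1, and the aegl KO count of 11 was 3 and 2 without WT ALT replicates 1 and 2, and 4 and 6 without aegl KO replicates 1 and 2. The share of mitochondrial counts was 2.61% and 2.24% with aegs KO and 0.55% and 2.26% with aegl KO against 1.02% and 0.99% with WT ALT in H292-1. In H1437-4 it was 1.21% and 1.52% with aegs KO and 1.45% and 1.29% with aegl KO against 2.01% and 2.02% with WT ALT, and its part in these counts was not tested.

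ATP1B3 had 331 and 340.2 CPM with aegs KO and 336 and 348 CPM with aegl KO against 417 and 442 CPM with WT ALT in H1437-4 (-0.36, adjusted p = 7.31e-05, and -0.33, adjusted p = 0.000161). ATP1B1 had 442 and 435 CPM with aegs KO and 473 and 440.4 CPM with aegl KO against 558 and 602 CPM (-0.40, adjusted p = 3.76e-05, and -0.35, adjusted p = 0.000178). All KO libraries lay below both WT ALT libraries. In H292-1 ATP1B1 had 79.0 and 74.4 CPM with aegs KO and 91.6 and 75.1 CPM with aegl KO against 129 and 133 CPM with WT ALT (-0.78, adjusted p = 0.00144, and -0.66, adjusted p = 0.00476). The aegl KO call was lost without WT ALT replicate 2 (adjusted p = 0.0539). KCNF1 lay lower than with WT ALT in H1437-4, the log2 difference being -0.81 for the aegs KO extract (adjusted p = 4.87e-05) and -0.80 for the aegl KO extract (adjusted p = 4.93e-05). KCNE4 had 13.1 and 14.3 CPM with aegs KO and 14.2 and 14.6 CPM with aegl KO against 6.12 and 6.93 CPM with WT ALT (1.07, adjusted p = 1.32e-05, and 1.14, adjusted p = 6.89e-06). The KO libraries thus held the level of the DPBS libraries, 14.9 and 13.0 CPM.

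In H292-1 KCNJ12 was called against WT ALT with 1 knockout extract only, and ATP2B1 and KCNK5 with both. KCNJ12 had 11.6 and 12.9 CPM with aegs KO and 24.4 and 21.5 CPM with aegl KO against 25.1 and 30.0 CPM with WT ALT. The aegs KO libraries were at the DPBS level of 13.3 and 15.3 CPM (-1.17 from WT ALT, adjusted p = 0.000466), and the aegl KO libraries were not called against WT ALT (-0.26, adjusted p = 0.263). The difference between the knockout extracts was not tested, and KCNJ12 was not called with aegl KO against DPBS either. ATP2B1 had 101 and 102 CPM with aegs KO and 125 and 116 CPM with aegl KO against 61.1 and 62.9 CPM with WT ALT (0.71 ± 0.11, adjusted p = 0.00109, and 0.95 ± 0.11, adjusted p = 0.000213). Every KO library lay above both WT ALT libraries and above the DPBS libraries of 88.1 and 88.4 CPM. KCNK5 had 10.3 and 14.8 CPM with aegs KO and 17.4 and 18.4 CPM with aegl KO against 27.8 and 31.2 CPM (-1.23, adjusted p = 0.000726, and -0.72, adjusted p = 0.0162). The aegl KO call was lost without WT ALT replicate 1 (adjusted p = 0.0661), WT ALT replicate 2 (adjusted p = 0.135) or aegl KO replicate 1 (adjusted p = 0.0848). KCNJ14, an inward rectifier, had 2.94 and 4.08 CPM with aegl KO against 1.12 and 1.28 CPM with WT ALT (1.55 ± 0.30, adjusted p = 0.00585), lost without WT ALT replicate 1 (adjusted p = 0.0646).

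**Figure D4:**
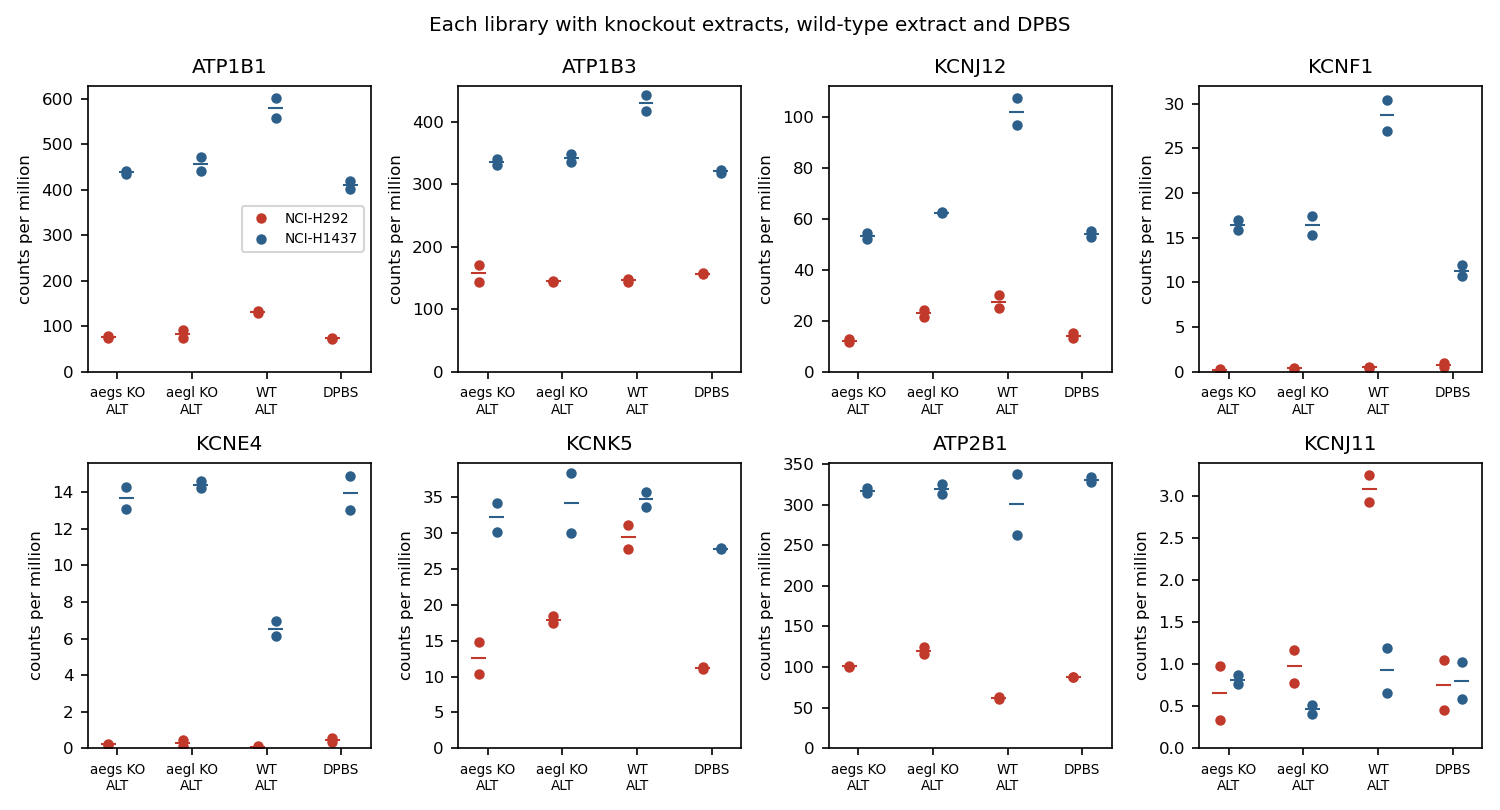
CPM per library (points) and group mean (short lines) of 8 genes in the aegs KO, aegl KO, WT ALT and DPBS groups of both lines. In H1437 the KO libraries of ATP1B1 and KCNE4 sit near DPBS and apart from WT ALT, and in H292 KCNJ12 is near WT ALT with the aegl KO extract.

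Tra was given with ALT or with Aeg-S/L in H1437 cells. Against ALT alone, 4 of 62 genes fell and none rose in H1437-1 (5.08% of all genes called, 1.33% higher and 3.75% lower), and 1 of 66 fell against Aeg-S/L in H1437-2 (1.27%, 0.124% higher and 1.15% lower). KCNJ12 had 18.9, 20.3 and 25.5 CPM with Tra and ALT against 79.6, 82.6 and 85.7 CPM with ALT alone (-1.94 ± 0.18, adjusted p = 0.000198). These Tra libraries were below the DPBS libraries too, at 58.6, 52.5 and 59.7 CPM (-1.40, adjusted p = 0.00857), where 0.283% of all genes were called (0.123% higher, 0.16% lower) and KCNJ12 was the single gene of the group that fell. That call was lost without Tra replicate 1 (adjusted p = 0.0567) or Tra replicate 2 (adjusted p = 0.0781). In H1437-2 KCNJ12 had 43.7 and 32.6 CPM with Tra and Aeg-S/L against 105 and 102 CPM with Aeg-S/L (-1.44 ± 0.23, adjusted p = 0.00612), lost without Tra replicate 2 (adjusted p = 0.152) or either Aeg-S/L library (adjusted p = 0.0909 and 0.0714).

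KCNF1 had 6.99, 3.64 and 17.5 CPM with Tra and ALT against 61.2, 61.5 and 66.8 CPM with ALT (-2.76 ± 0.51, adjusted p = 0.0112). KCNK5 had 18.6, 13.7 and 19.7 CPM against 42.2, 41.2 and 40.7 CPM (-1.26 ± 0.21, adjusted p = 0.00739). ATP1B3-AS1 had 0.328, 0.515 and 0.165 CPM against 2.98, 5.32 and 6.10 CPM (-3.79 ± 0.59, adjusted p = 0.00433). For all 3 genes the Tra libraries lay below every ALT library, and the calls held without any 1 library. The Tra and ALT libraries did not overlap for 40.2% of all genes. ATP1B3 had 481, 502 and 326 CPM with Tra and ALT against 683, 774 and 758 CPM with ALT, which narrowly missed the threshold (-0.76 ± 0.2, adjusted p = 0.0505). With Tra and Aeg-S/L in H1437-2 it had 423 and 423 CPM against 619 and 638 CPM (-0.57, adjusted p = 0.122).

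Each protein given alone changed none of the 66 genes by edgeR or by DESeq2, as 0% of all genes were called with either. With Aeg-S alone 5 genes had an unadjusted p under 0.05 and with Aeg-L alone 1 did. Without Aeg-S replicate 1 the Aeg-S count was 5. ATP1B3 had 371 and 346 CPM with Aeg-S, 410 and 343 CPM with Aeg-L and 619 and 638 CPM with Aeg-S/L, against 341 and 357 CPM in DPBS. KCNF1 had 9.01 and 15.5 CPM with Aeg-S, 11.2 and 21.3 CPM with Aeg-L and 36.2 and 38.1 CPM with Aeg-S/L, against 17.0 and 11.0 CPM in DPBS. For both genes each library of a single protein lay below both Aeg-S/L libraries. With Tra and Aeg-S/L, none of the 66 genes was called against DPBS (0.495% of all genes, 0.478% higher and 0.0177% lower), 4 having an unadjusted p under 0.05, and DESeq2 likewise called 0.

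The changes were set against each other between the lines with an interaction term, in which line and experiment cannot be told apart. For Aeg-S/L (H292-2 against H1437-3) 11 genes differed, with 17.1% of all genes called (9.16% higher in H292, 7.97% lower), and for the wild-type extract (H292-1 against H1437-4) 10 did, with 15% (8.26% higher in H292, 6.7% lower). As shares of the genes of the group that were tested, both counts were below the shares of all genes. The 11 include KCND3 (-7.35) and KCNK12 (7.08), each at 0 CPM in 1 H292 group. Their group means were at most 0.744 and 0.333 CPM. Without H292-2 Aeg-S/L replicate 2 the 11 became 7, and without H292-1 WT ALT replicate 1, H292-1 WT ALT replicate 2 or H1437-4 DPBS replicate 2 the 10 became 4, 5 and 4. The line difference had opposite signs for the beta subunits: the log2 change under Aeg-S/L in H292 minus that in H1437 was -0.92 ± 0.07 for ATP1B3 (adjusted p = 1.45e-08) and 0.63 ± 0.07 for ATP1B1 (adjusted p = 5.74e-06). For ATP2A2 the difference was 0.36 ± 0.06 (adjusted p = 0.000356), for ATP2C1 0.48 ± 0.08 (adjusted p = 0.000202) and for KCNS3 0.75 ± 0.16 (adjusted p = 0.0028). With the wild-type extract it was not called for ATP1B1 (0.33, adjusted p = 0.0624) or ATP2A2 (0.31, adjusted p = 0.0739). Nor was it for ATP2C1 (0.23, adjusted p = 0.189) or KCNS3 (0.24, adjusted p = 0.394). KCNK5 (1.08 ± 0.15, adjusted p = 0.000477) rose more in H292 with the wild-type extract.

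Other genes of ion and volume balance were listed for the same cells. These lists were chosen with earlier results of these data known, so their shares cannot be read as enrichment. Of 9 osmotic response genes, 5 rose and 1 fell of 8 tested in H1437-3, 5 rose and 2 fell in H1437-4, 3 rose and 1 fell in H292-1 and 6 rose and 1 fell in H292-2, with median log2 changes of 0.55, 0.46, 0.24 and 0.46. These are 75%, 87.5%, 50% and 87.5% of those tested, where 31.2%, 32.8%, 22.9% and 43.2% of all genes were called and the median over all genes was 0.01, -0.01, -0.01 and -0.01. SGK1, a kinase that regulates ion channels and the sodium pump, had 220 and 220 CPM with Aeg-S/L against 6.85 and 6.84 CPM in DPBS in H292-2 (5.01 ± 0.09, adjusted p = 5.45e-19). With a chelator it had 11.2 and 12.1 CPM (BAPTA-AM) and 8.63 and 9.53 CPM (EGTA). In H1437-3 it had 28.0 and 31.5 CPM with Aeg-S/L against 1.07 and 1.62 CPM (4.46 ± 0.22, adjusted p = 1.46e-10). The KO extracts left SGK1 at 1.47 and 2.03 CPM (aegs KO) and 1.42 and 1.82 CPM (aegl KO) against 20.9 and 13.4 CPM with WT ALT in H1437-4. Of 12 sodium, ATP-gated and mechanically gated channel genes, none fell in these 4 comparisons, and 2 of 8, 2 of 8, 4 of 9 and 4 of 8 tested rose in H1437-3, H1437-4, H292-1 and H292-2 (25%, 25%, 44.4% and 50%, beside the same shares of all genes). Of 14 chloride and volume transport genes 13 were tested, and 3 rose and 4 fell, 4 rose and 4 fell, 1 rose and 1 fell, and 3 rose and 4 fell in the same order. That is 53.8%, 61.5%, 15.4% and 53.8% of them, above the share of all genes in H1437-3, H1437-4 and H292-2 and below it in H292-1. Of 17 genes of calcium entry and release, 2 rose and 2 fell of 15, 2 fell of 16, 4 rose of 16, and 4 rose and 2 fell of 16. Those shares of 26.7%, 12.5%, 25% and 37.5% were near or below the share of all genes. Of 11 pump regulators, 3 or 4 were tested in each, and 2 rose in H1437-4, 1 fell in H292-1 and none was called in H1437-3 or H292-2 (50% and 33.3% of those tested in H1437-4 and H292-1).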

How the data were processed

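Raw counts per gene, as the authors deposited them, were used from 6 human tables that together hold 51 of the 99 samples, 48 mouse samples being not used here. Per the submitters' processing notes the tools were HISAT2 2.2.1, SAMtools, featureCounts 2.0.2, DESeq2 1.36.0 and R 4.2.2, with builds hg19 and mm10. Counts were not normalized by the authors per the file headers, and FPKM was computed here from the counts and the deposited gene lengths. Libraries held 32425310 to 53172930 counts.

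Each table was fitted with edgeR 4.0.16 in R 4.3.3 (filterByExpr, TMM scaling, 1 coefficient a group, quasi-likelihood test), with Benjamini-Hochberg adjustment over all genes tested and a threshold of 0.05. Per-library CPM are TMM-scaled, and the SE is the log2 change divided by the root of F. Differences between lines came from a joint fit of 2 tables. Alternatives were DESeq2 1.42.0, DESeq2 size factors, no low-count filter, at least 10 counts in 2 libraries, a replicate block, coding genes alone, and leaving out each library. The fit was tested on simulated data with changes planted in genes above 1 CPM. Of log2 changes of 1, it recovered 22% for ALT in H1437-1. For Aeg-S/L it recovered 88% in H1437-3 and 92% in H292-2. Of log2 changes of 2, it recovered 94%, 98% and 100% in the same order. False calls were 7 of 123, 20 of 206 and 10 of 202. Of the kept genes, 2 in H1437-1, 1 in H1437-3, 5 in H1437-4, 4 in H292-1 and 2 in H292-2 did not pass edgeR's filter.

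Genes named were those chosen by role (ATP1B1, ATP1B3, ATP2A2, ATP2B1, ATP2B4, ATP2C1, KCNN4, KCNMA1, KCNK1, KCNQ1, TRPV4, TRPM7, TRPC1, TRPM4), the 15 at 1 CPM or more called in most of the 6 stimulus comparisons, and the 3 with the largest change in each comparison of a chelator, Tra or KO extract with its stimulus. Of the last kind, those that rest on few counts are left out of the text, and some results are not reported here. The members and lists were chosen with earlier results of these data known.

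Same-numbered libraries deviated together in 1 contrast with 3 pairs, ALT with Tra against DPBS in H1437-1 (correlations 0.47, 0.12 and 0.37), where the block left the count unchanged. No libraries of a group agreed within counting noise (30 pairs, lowest chi-square per degree of freedom 4.02). Promoters were matched by symbol for 57 of the 85 genes.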

Additional observations from a re-analysis of the deposited data

Results flagged for a closer look

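Changes that differed between the lines, by the interaction term of the joint fit, are given as the log2 change in H292 minus that in H1437. Line and experiment cannot be told apart in any of them. With the wild-type extract the difference was -0.52 for ATP1B3, which was lost without H292-1 WT ALT replicate 1 (adjusted p = 0.0581) or H1437-4 DPBS replicate 2 (adjusted p = 0.0509), -1.86 for KCNF1 and 1.08 for KCNK5. It was 0.51 for TRPC4AP (adjusted p = 0.00864, lost without H292-1 WT ALT replicate 2 or H1437-4 DPBS replicate 2 with adjusted p = 0.0652 and 0.0557). It was 0.6 for TRPM7 (adjusted p = 0.00733, lost without H292-1 WT ALT replicate 1 with adjusted p = 0.0503). It was -2.09 for ATP2A1-AS1 and -2.53 for KCNAB3, each of which kept its call in 4 of 12 alternatives.

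With Aeg-S/L the difference was 0.63 for ATP1B1, -0.92 for ATP1B3, 0.36 for ATP2A2, 0.48 for ATP2C1, 1.79 for KCNF1 and 0.75 for KCNS3. It was 0.68 for ATP2A3 and 0.73 for KCNK5 (lost in 3 of 12 alternatives each). For KCNF1 the sign of the line difference was not the same under the extract and under Aeg-S/L, and its level in H292 was at most 2.07 CPM in any library with either stimulus.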

How the results depend on the processing

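Of 266 called log2 changes of named genes, 131 kept their call under every alternative run. With DESeq2 11 of 264 lost it, with no low-count filter 11 of 266, with DESeq2 size factors 4 of 266, with the replicate block 9 of 266, and with at least 10 counts in 2 libraries 0 of 249. Leaving out a library lost 368 of 1148. The sign turned for KCNQ1OT1 in H292-2 without DPBS replicate 2, where leaving out 1 library gave values from -2.2 to 0.08 with Aeg-S/L and from -2.1 to 0.18 with Aeg-S/L and BAPTA-AM, each against DPBS. The cause was not tested. With 2 libraries in most groups, small log2 changes and genes under 1 CPM are at the limit of these data.

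Counts of called genes moved by over 1.5 times as follows. Against DPBS, DESeq2 called 9 and no filter 7 with ALT in H1437-1 (3 as reported), 4 and 3 with ALT and Tra (1), 2 and 2 with each KO extract in H1437-4 (1) and 3 and 2 with the aegl KO extract in H292-1 (0). DESeq2 called 7 for ALT and Tra against ALT (4), and DESeq2 and no filter called 4 and 3 for Aeg-S/L and Tra against Aeg-S/L (1). No filter gave 3 with EGTA in H1437-3 (0). The replicate block, where the numbers were not shown to pair the libraries (correlations from -0.1 to 0.26 in the experiments with 2 replicates), gave 3 for Aeg-S/L in H1437-2 (6) and 3 for EGTA against DPBS in H1437-3 (0). It moved no other count by that much.

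Leaving out 1 library gave these ranges of counts. Against DPBS they were 1 to 5 with ALT and 0 to 1 with ALT and Tra in H1437-1, 0 to 5 with Aeg-S and 0 to 0 with Aeg-S/L in H1437-2, 13 to 17 with Aeg-S/L and 0 to 1 with EGTA in H1437-3, and 0 to 0 with either KO extract in H1437-4. In H292 they were 5 to 9 with WT ALT, 14 to 22 with Aeg-S/L, 13 to 15 with BAPTA-AM and 6 to 12 with EGTA. Against the stimulus they were 0 to 1 with Tra in H1437-2, 11 to 14 with BAPTA-AM and 9 to 12 with EGTA in H1437-3, 11 to 21 with aegl KO in H1437-4, 7 to 18 with aegs KO and 2 to 6 with aegl KO in H292-1, and 9 to 12 with BAPTA-AM in H292-2. Line differences ranged from 7 to 15 for Aeg-S/L and from 4 to 12 for the extract.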
